A study of Mus musculus with 2 samples.

Results

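Genes for proteins of the nucleolus and for ribosome assembly factors were compared between primitive and maturing haematopoietic stem cells (HSC) of mouse bone marrow. A list of 32 genes was taken by gene symbol, with all probe sets that the array annotation gives to each symbol alone. This gave 29 genes, of 12393 genes on the array, with 49 probe sets. Dkc1, Nob1 and Mrto4 were not analysed here, and the Mrto4 probe set was shared with other symbols. Rrp9 and Nop2 lay at the floor on both arrays, so 27 genes were measured. The list holds proteins of the nucleolus itself, proteins of the small nucleolar ribonucleoproteins (snoRNPs) and assembly factors of either ribosomal subunit.

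Ribosomes are built in the nucleolus, where RNA polymerase I transcribes a long precursor of the ribosomal RNAs. The snoRNPs modify this precursor at chosen bases: box C/D particles methylate riboses and box H/ACA particles convert uridine into pseudouridine. Other factors fold and cut the precursor, join the ribosomal proteins to it and release the small and the large subunit. Inherited defects of ribosome assembly and of the H/ACA proteins cause bone marrow failure, and HSC are known for a low rate of protein synthesis that goes up as they mature.

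The study used 1 Affymetrix array for primitive HSC and 1 array for maturing HSC, both from cells sorted by flow cytometry after a short culture and given no treatment. The sources used here do not give strain, age, number of animals or the surface markers of the sort. Total RNA was turned into cDNA, amplified by PCR, selected for size and cloned into a phage library, per the labels' protocols, and the arrays were hybridised with RNA made from the inserts. With 1 array per group there was no spread between replicates and no test was possible, so each value describes this pair of libraries. Fewer cells of a type and less RNA per cell cannot be told apart in such samples.

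Of the stem cell marker genes fixed for a check of the labels, 13 of 14 on the array were measured, and Gfi1b was at the floor on both. Of the 13, 6 had a ratio above 0 and 7 below 0, with a median of -0.01, so the list as a whole did not separate the arrays. Kit had 3803 in primitive and 5053 in maturing HSC, Cd34 3321 and 6237, and Procr, a surface marker of long-term HSC, 11572 and 1895. Other stem cell genes were higher in maturing HSC, among them Meis1 (59.1 and 1199), Hlf (1120 and 2670), Tek (310 and 977) and Lmo2 (6401 and 11942), chosen after their values were seen. Tal1 was nearly level (2303 and 2311). The rest of the 13 were higher in primitive HSC, namely Abcg2 (1693 and 352), Thy1 (1575 and 1069), Slamf1 (850 and 722), Gata2 (2487.5 and 2180) and Mecom (490 and 390). Abcg2 and Mecom were below the floor in maturing HSC. Markers of mature cells were also present. The summed intensity of 9 neutrophil markers was 102442 in primitive and 52227 in maturing HSC, and that of 6 measured T and natural killer cell markers of 9 on the array was 56848 and 11296, with Cd3e, Cd3g and Cd2 at the floor on both. Members of both lists went both ways. The neutrophil sum rests mostly on S100a8, Camp and S100a9, while Mpo (270 and 2587), Csf3r (394 and 2575) and Ltf (737 and 2284) were higher in maturing HSC. Ccl5 gave 37798 and 1511 of the T and natural killer cell sums and Cd3d 8674 and 44.2, while Nkg7 (6299 and 7932) and Gzmb (727 and 1143) were higher in maturing HSC. The sums of the B cell markers (6 measured of 8) were 2282 and 3971, with Ebf1 and Pax5 at the floor on both, those of the erythroid markers (3 of 6) were 4213 and 3923, with Hba-a1, Alas2 and Car1 at the floor, and those of the megakaryocyte markers (4 of 6) were 6036 and 6198, with Ppbp and Vwf at the floor. All 18 hybridisation control probe sets read higher in primitive HSC, with a median ratio of 0.97 on the log2 scale. The part of these differences in the results below was not tested.

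The assembly genes did not move as a block. Fibrillarin (Fbl) and Nop58 of the box C/D particle and the nucleostemin gene Gnl3 passed 4-fold toward maturing HSC, and Imp3 of the small subunit processome passed it toward primitive HSC. All 4 measured genes of the box H/ACA group and 7 of 8 small subunit genes were higher in primitive HSC, mostly by small folds. That group includes the snoRNP chaperone Nolc1. With scaling to the hybridisation controls, however, all 4 of the group and 5 of the 8 read lower in primitive HSC. Pes1 and Wdr12 of the PeBoW complex and Gnl3, Rrs1 and Nop16 of large subunit assembly were higher in maturing HSC. Bop1, Rrp1b, Nip7 and Ebna1bp2 were higher in primitive HSC and, except for Nip7, below 0 with that scaling. For Rrp1b, that scaling also changed the probe set read.

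Ratios are log2 of primitive over maturing intensity, so positive values mean higher in primitive HSC. Intensities under 441 were set to this floor, and a gene with 1 array at the floor has only a bound. Of the 27 measured genes, 16 had a ratio above 0, against 52.7% of all 8852 measured genes, and 11 a ratio below 0, against 47.3%. At 4-fold, 1 gene was higher in primitive HSC (3.70% of the 27, against 3.45% of all measured genes) and 3 were higher in maturing HSC (11.1%, against 4.69%). At 2-fold, 5 genes were higher in primitive HSC (18.5%, against 15.6%) and 7 in maturing HSC (25.9%, against 17.6%). The median of the 27 was 0.25 and that of all measured genes 0.07, so the list as a whole stood close to the rest of the array.

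With 1 array per group there is no replicate error, and the spread between probe sets of a gene does not stand in for it. That spread shows only how far the choice of probe set moves a ratio, and its SD over all genes was 0.82 (log2). In all, 12 of the 27 genes (44.4%) lay further from 0 than that SD, against 41.8% of all measured genes. Of 14 assembly genes with more than 1 measured probe set, all probe sets went the same way in 7, beside 1537 of 2763 such genes on the array (55.6%). For the other 7, Ncl, Npm1, Bysl, Nop16, Ebna1bp2, Rrp1b and Nip7, the direction depended on the probe set.

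**Figure D1:**
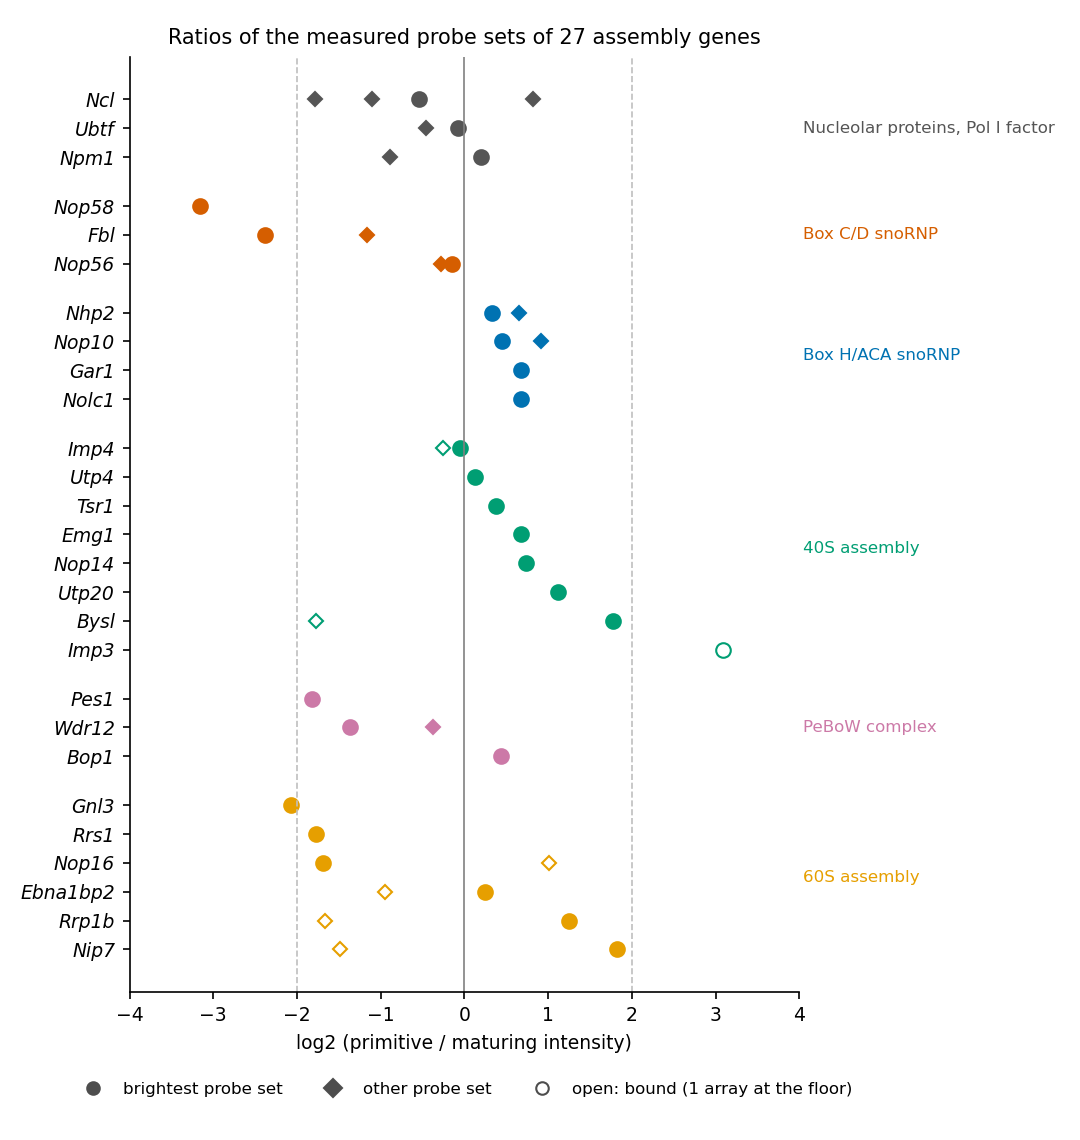
Log2 ratio of primitive over maturing intensity (x axis) for the measured probe sets of 27 genes, ordered by role (y axis). Circles are the brightest probe set of a gene, diamonds its other probe sets, open symbols bounds, and dashed lines 4-fold. Box C/D genes all lie below 0, H/ACA genes all lie above 0 (below 0 when scaled to the hybridisation controls), and probe sets of Bysl, Nip7, Rrp1b and Nop16 lie on opposite sides.

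Ncl, Npm1 and Ubtf act on the nucleolus as a whole or on RNA polymerase I. Nucleolin (Ncl) binds the ribosomal RNA precursor and is among the most abundant nucleolar proteins. Its brightest probe set read 6401 in primitive and 9285 in maturing HSC, a ratio of -0.54. Its other probe sets read 2170 and 4668 (-1.11), 507 and 1749 (-1.79), and 804 and 457 (0.81). Thus 3 of its 4 probe sets were higher in maturing HSC and 1, of the kind that can bind related transcripts, was higher in primitive HSC.

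Nucleophosmin (Npm1) is a nucleolar chaperone that shuttles between nucleolus and cytoplasm. Its probe sets disagreed as well, with 68136 (primitive) against 59317 (maturing) for the brightest (0.20) and 29462 and 54583 for the other (-0.89). After quantile normalization and lowess, the brightest probe set of Npm1 turned to -0.74 and -0.75. Ubtf, the upstream binding factor that recruits RNA polymerase I, was nearly level at 1740 and 1835 (-0.08), and its dimmer probe set read 519 and 712 (-0.46).

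Box C/D particles gave the largest differences toward maturing HSC. Nop58, a core protein that holds the guide RNA, read 1060 in primitive and 9488 in maturing HSC, 8.95-fold higher in maturing HSC (ratio -3.16) on its single probe set. Fibrillarin (Fbl), the methyltransferase of the particle, read 2481 and 12933 on its brighter probe set, 5.21-fold higher in maturing HSC (-2.38). That probe set is of a kind that can bind several transcripts, and the other Fbl probe set, with 3385 and 7552, was 2.23-fold higher in maturing HSC (-1.16).

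Nop56, which pairs with Nop58 in the same particle, did not share this difference in size. It read 5253 and 5813 (-0.15), and 1863 and 2265 (-0.28) on its second probe set. The genes of the 3 listed core proteins were therefore all lower in primitive HSC, but by amounts between 1.11-fold and 8.95-fold. Each kept this direction under every alternative computed that gave a value. For Nop58, with 1 probe set, those that change the floor or the choice of probe set could not turn it.

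Box H/ACA proteins went the other way. These proteins form the pseudouridine-making particle together with dyskerin, the product of Dkc1, and are also part of telomerase. Nop10, the smallest of them, read 42412 (primitive) and 31054 (maturing), a ratio of 0.45, and 47636 and 25293 on its other probe set (0.91). Nhp2 read 8191 and 6500 (0.33), and 7554 and 4816 (0.65). Gar1 read 1184 and 743 (0.67) on its single probe set. That probe set and the brighter one of Nhp2 are of a kind that can bind several transcripts.

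Nolc1, a chaperone of snoRNPs that moves between nucleolus and Cajal bodies, read 1369 and 854 (0.68), with 2 further probe sets at the floor on both arrays. The 4 genes were thus 1.26-fold to 1.60-fold higher in primitive HSC on their brightest probe sets, and all 6 of their measured probe sets went that way. Every one of these ratios on the brightest probe sets was below the SD between probe sets of 0.82. Nop10 turned to -0.31 after quantile normalization and -0.32 after lowess, and the median of the 4 genes was -0.41 with scaling to the hybridisation controls, where the median of all measured genes was -0.74.

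Because the measured genes of the H/ACA group went one way together, sequence upstream of their transcription starts is shown. Beside it stands that of Nop58 and Imp3, the members with the largest ratio in either direction. Each stretch holds 60 bases, 5′ to 3′ on the strand of the gene, taken from RefSeq promoters of build GRCm38.p6, and lies outside every annotated gene of that build. To stay outside annotated genes, those of Gar1 (-71 to -12 from the start) and Nop58 (-105 to -46) were moved upstream. The others span -60 to -1. Capitals mark the letters CCGGAAG or their reverse complement CTTCCGG, a form of the site bound by ETS transcription factors.
Nop10: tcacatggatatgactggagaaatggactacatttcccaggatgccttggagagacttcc
Nhp2: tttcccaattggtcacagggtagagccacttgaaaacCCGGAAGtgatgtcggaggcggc
Gar1: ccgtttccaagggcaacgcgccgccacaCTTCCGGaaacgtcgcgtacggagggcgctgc
Nolc1: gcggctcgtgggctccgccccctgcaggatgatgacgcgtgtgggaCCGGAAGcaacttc
Nop58: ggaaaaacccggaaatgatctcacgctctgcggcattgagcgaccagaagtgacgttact
Imp3: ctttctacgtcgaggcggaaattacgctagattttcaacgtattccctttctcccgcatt
The stretches lie at chr2:112261866-112261925 for Nop10, chr11:51619713-51619772 for Nhp2, chr19:46075787-46075846 for Nolc1, chr1:59684901-59684960 for Nop58 and chr9:56937440-56937499 for Imp3, all on the plus strand, and at chr3:129831408-129831467 on the minus strand for Gar1.

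The ETS core was thus in the stretches of Nhp2, Gar1 and Nolc1 and not in those of Nop10, Nop58 and Imp3. Searched on both strands of the 250 bases before each annotated start, CCGGAAG was found for 7 of the 25 assembly genes on the array that have a promoter entry (28%), against 12.9% of 9887 genes on the array. It was also found for 29.9% of 107 other ribosome assembly genes and 42.1% of 38 cytosolic ribosomal protein genes. The 6 measured members with it (Nhp2, Gar1, Nolc1, Emg1, Utp4 and Nip7) all had a ratio above 0, and 8 of 17 members without it did, but with scaling to the hybridisation controls 5 of the 6, all except Nip7, were below 0. The other sets went the other way. A ratio above 0 was seen for 48.4% of 1041 measured genes of the array with the letters and 52.8% without, for 5 of 24 other ribosome assembly genes with them and 23 of 65 without, and for 14 of 16 ribosomal protein genes with them and 20 of 21 without. The E-box CACGTG, the letters bound by Myc and Max, was found for 2 of the 25 (Imp4 and Nop2, 8%), against 9.19% of genes on the array.

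The small subunit members of the list were mostly higher in primitive HSC. The small subunit processome is the large particle that forms on the precursor as it is transcribed, and cuts out the small subunit RNA. Imp3, a processome protein that acts with Imp4, read 3746 in primitive HSC and 385 in maturing HSC, below the floor. Its level in primitive HSC was therefore higher by at least 8.49-fold, and no other member passed 4-fold in that direction. Imp4 itself was level, with 1556 and 1615 (-0.05).

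Utp20, a very large scaffold protein of the processome, read 2157 and 997, 2.16-fold higher in primitive HSC (1.11). Nop14 read 1395 and 838 (0.74) and Utp4, called cirhin in humans, 2772 and 2534 (0.13). Emg1, which methylates a pseudouridine of the small subunit RNA, read 12244 and 7655 (0.68). Imp3, Utp20, Nop14, Utp4 and Emg1 rest on 1 probe set each. Of the measured processome members of the list, only Imp4 was not higher in primitive HSC. Imp4 turned to 0.14 after quantile normalization and 0.06 after lowess. Scaled to the hybridisation controls, 3 of the 8 small subunit genes stayed above 0, namely Imp3, Utp20 and Bysl.

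Tsr1 and Bysl act on later small subunit precursors. Tsr1 read 1530 and 1182 (0.37) on a single probe set, of a kind that can bind several transcripts. Bysl, or bystin, read 3002 and 880, 3.41-fold higher in primitive HSC (1.77), on its brighter probe set. Its other probe set read 371 and 1511, at least 3.43-fold higher in maturing HSC, so the direction of Bysl is unsettled in these arrays. Rrp9 read 124 and 61, both below the floor.

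The PeBoW complex, made of Pes1, Bop1 and Wdr12, is needed to cut the precursor of the large subunit RNA. Pes1, or pescadillo, read 459 in primitive and 1616 in maturing HSC, 3.52-fold higher in maturing HSC (-1.82), and its second probe set was below the floor on both arrays. The primitive value lay just above the floor, and with the floor at percentile 75 of intensities the ratio was -0.65, short of 2-fold. Wdr12 read 1018 and 2621, 2.57-fold higher in maturing HSC (-1.36), and 511 and 666 (-0.38) on its dimmer probe set. Bop1 differed from its partners, with 1316 and 975 (0.43), and was -0.54 when scaled to the hybridisation controls.

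Of the 6 measured large subunit factors outside PeBoW, 3 were higher in maturing and 3 in primitive HSC. Scaled to the hybridisation controls, Nip7 stayed above 0 and Ebna1bp2 fell below it. Rrp1b was then read from another probe set, which was below 0 in the main setting too (-1.67), and gave -2.17. Gnl3, the GTP-binding nucleolar protein nucleostemin named for its abundance in stem cells, read 682 in primitive and 2858 in maturing HSC, 4.19-fold higher in maturing HSC (-2.07). It was short of 4-fold after lowess (-1.94), after quantile normalization (-1.96) and with the floor at percentile 75 (-1.48). Rrs1 read 585 and 2007 (-1.78), 3.43-fold higher in maturing HSC, and -0.97 with that higher floor, short of 2-fold. Both genes rest on 1 probe set each, and both kept this direction under all alternatives that gave a value. With 1 probe set, the alternatives that change the floor or the choice of probe set could not turn it.

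The remaining 4 large subunit factors had probe sets that disagreed. Nop16 read 826 and 2664 (-1.69) and, on its other probe set, 892 and 387, at least 2.02-fold higher in primitive HSC. Nip7 read 7436 and 2105, 3.53-fold higher in primitive HSC (1.82), but 172 and 1231 on its other probe set, at least 2.79-fold higher in maturing HSC. Rrp1b, which also binds chromatin, read 1166 and 492 (1.24), against 180 and 1399 on a second probe set, at least 3.17-fold higher in maturing HSC. With the higher floor the ratio of its brightest probe set was 0.18.

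Ebna1bp2 read 920 and 774 (0.25) on a probe set that can bind several transcripts and 232 and 848 on the other, at least 1.92-fold higher in maturing HSC. Nop2, a methyltransferase of the large subunit RNA, read 150.5 and 375, both below the floor. With the median over all measured probe sets of a gene in place of the brightest, only 1 of these 6 large subunit genes was above 0, and 12 of all 27 assembly genes were.

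**Figure D2:**
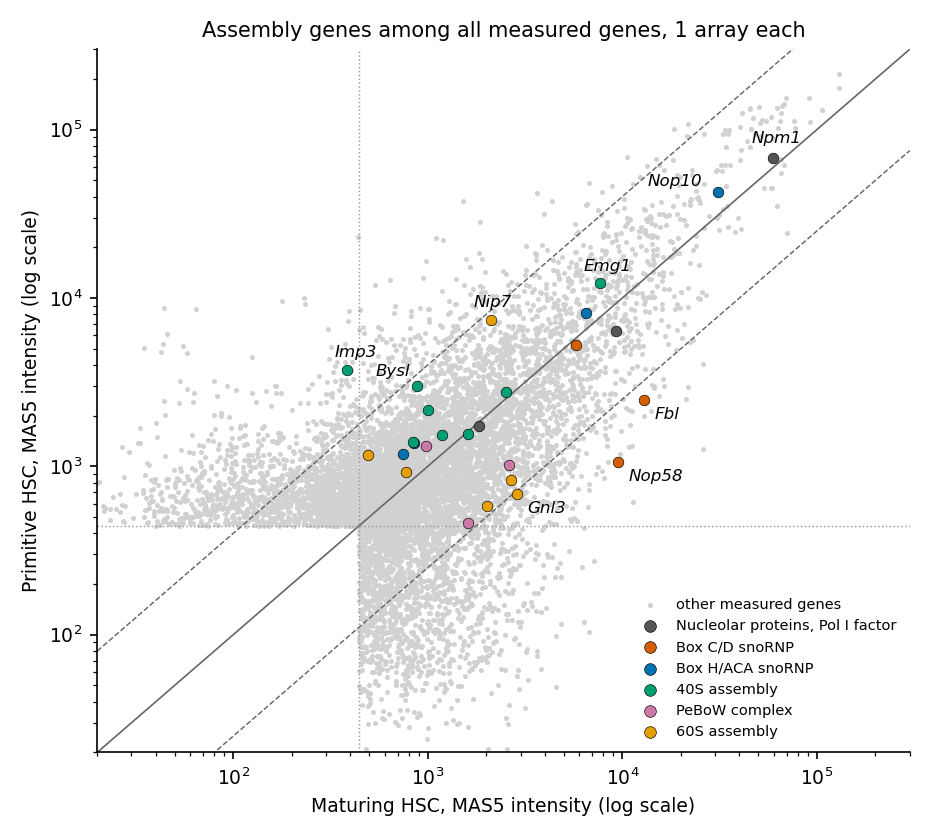
Intensity on the primitive array (y axis) against the maturing array (x axis), both log scales, for each measured gene by its brightest probe set. Coloured points are the 27 assembly genes by role, grey points other measured genes, dotted lines the floor and dashed lines 4-fold. Of the coloured points, Nop58 and Fbl stand furthest below the diagonal and Imp3 furthest above it.

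The members were also set against the rest of the pathway. A list of 156 other ribosome assembly genes, covering polymerase I, snoRNP assembly, both subunits and the nucleases, had 130 genes on the array and 111 measured. Of these, 34 had a ratio above 0 and 77 below 0, with a median of -0.45. At 4-fold, 5 were higher in primitive HSC (4.5%) and 9 in maturing HSC (8.11%), and at 2-fold 16 (14.4%) and 30 (27%).

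By role, 30 of 40 other small subunit genes had a ratio below 0, with a median of -0.45. The 8 small subunit members, with 7 above 0, therefore did not stand for the whole of that role on these arrays. Of the 38 other large subunit genes, 30 were below 0, with a median of -0.58, beside -0.72 for the 6 members. The 10 polymerase I genes had a median of -0.12, with 5 above 0 and 5 below. The 5 snoRNP assembly genes had a median of -0.15, with 2 above 0 and 3 below. For the 18 nuclease genes the median was 0.12, with 9 above 0 and 9 below.

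Among genes with agreeing probe sets, the largest ratios toward primitive HSC in that list were those of Pop5 (16627 and 983, 4.08), a protein of RNase P and RNase MRP, and Mphosph6 (3425 and 276, at least 7.77-fold), a cofactor of the RNA exosome. Znrd1, a subunit of RNA polymerase I, read 20567 and 3862 (2.41). Naf1, which helps assemble box H/ACA particles, read 6858 and 1355 and was 5.06-fold higher in primitive HSC (2.34). This was the direction of the H/ACA members, but 3 of the 5 measured genes of its role, snoRNP assembly, were below 0. Toward maturing HSC, the processome genes Utp18 (371 and 3052) and Heatr1 (96 and 2808) were at least 6.92-fold and 6.37-fold higher. Nifk (382 and 2824), a nucleolar partner of the Ki-67 protein, was higher there by at least 6.40-fold, and Rsl1d1 read 1698 and 8175 (-2.27).

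Ribosomal proteins, which the assembly factors join to the RNA, were placed beside them. Of 77 listed cytosolic ribosomal protein genes, 43 had a probe set of their single symbol, and 42 of these were measured. Of the 42, 39 had a ratio above 0, with a median of 1.06 against 0.25 for the assembly factors. The largest ratios with agreeing probe sets were those of Rpl37a (3.52), Rpl14 (3.30), Rps9 (3.20) and Rpl37 (2.68), and toward maturing HSC Rps25 was at least 1.40-fold higher and Rpl4 had -0.25. Most ribosomal protein genes are bright on these arrays, and the median of the brightest 886 of all measured genes was 0.44. Of the 27 assembly genes, 9 were among those 886. The ribosomal protein median came to 0.15 after lowess, 0.15 after quantile normalization and 0.09 with scaling to the hybridisation controls, and that of the assembly genes to 0.08, 0.16 and -0.75.

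**Figure D3:**
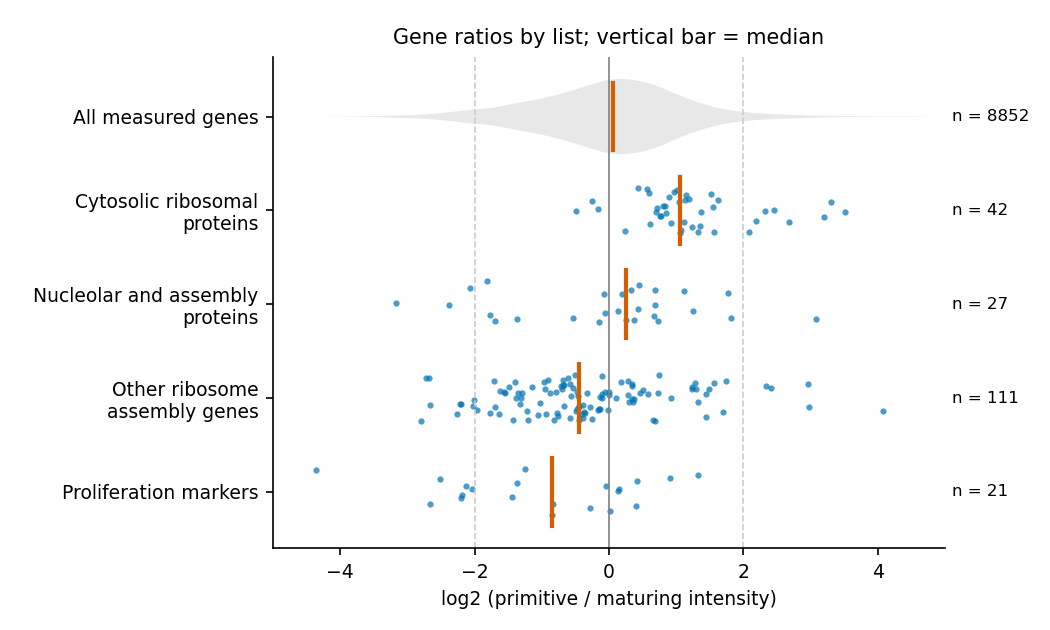
Log2 ratio of primitive over maturing intensity (x axis) for the measured genes of each list (y axis), with all 8852 measured genes as a grey density and the median as a vertical bar. The assembly genes have a median of 0.25 and spread from -3.16 to 3.09, between the ribosomal proteins (1.06, or 0.15 after lowess) and the proliferation markers (-0.85).

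Most proliferation genes were higher in maturing HSC, as Nop58, Fbl and Gnl3 were. Of 21 measured proliferation markers, 14 had a ratio below 0, with a median of -0.85, and 7 passed 4-fold toward maturing HSC and 0 toward primitive HSC. The summed intensity of the measured 21, with Tyms and Ccne2 at the floor on both arrays, was 57834 in primitive and 112189 in maturing HSC. The replication helicase genes Mcm7 (-4.35), Mcm6 (-2.67) and Mcm4 (-2.21) and the ribonucleotide reductase gene Rrm2 (at least 5.71-fold) were higher in maturing HSC. The genes named here are those with agreeing probe sets and the largest ratios. Toward primitive HSC, the survivin gene Birc5 had 0.90, the mitotic kinase gene Aurkb 0.15, and Plk1 and Bub1 were bounds close to 0, 0.14 and 0.01. Among genes whose probe sets disagreed, the ribonucleotide reductase gene Rrm1 read 3097 and 1236 (1.33), the 1 proliferation marker past 2-fold toward primitive HSC, and Cdc20 had 0.41 and the helicase gene Mcm3 0.40. The part of cell division in the lower Nop58, Fbl and Gnl3 values of primitive HSC was not tested.

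Myc, a transcription factor known to raise ribosome assembly genes, read 377 in primitive and 375 in maturing HSC, below the floor on both, and is named here outside the rule for named genes. Of 10 genes of the Myc network, 8 were measured and 5 of these were bounds, so the true ratios of those 5 may be larger. No value or bound reached 2-fold. The largest bounds were those of Mxd4 (857 and 114, at least 1.94-fold) and Mycn (806 and 195.5, at least 1.83-fold), both toward primitive HSC and both with disagreeing probe sets. Max, the partner of Myc, had a bound of 0.37 toward primitive HSC, Mlx had 0.14 and Mycl a bound of 0.09. The repressor genes Mxi1 and Mnt had -0.26 and -0.14.

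**Figure D4:**
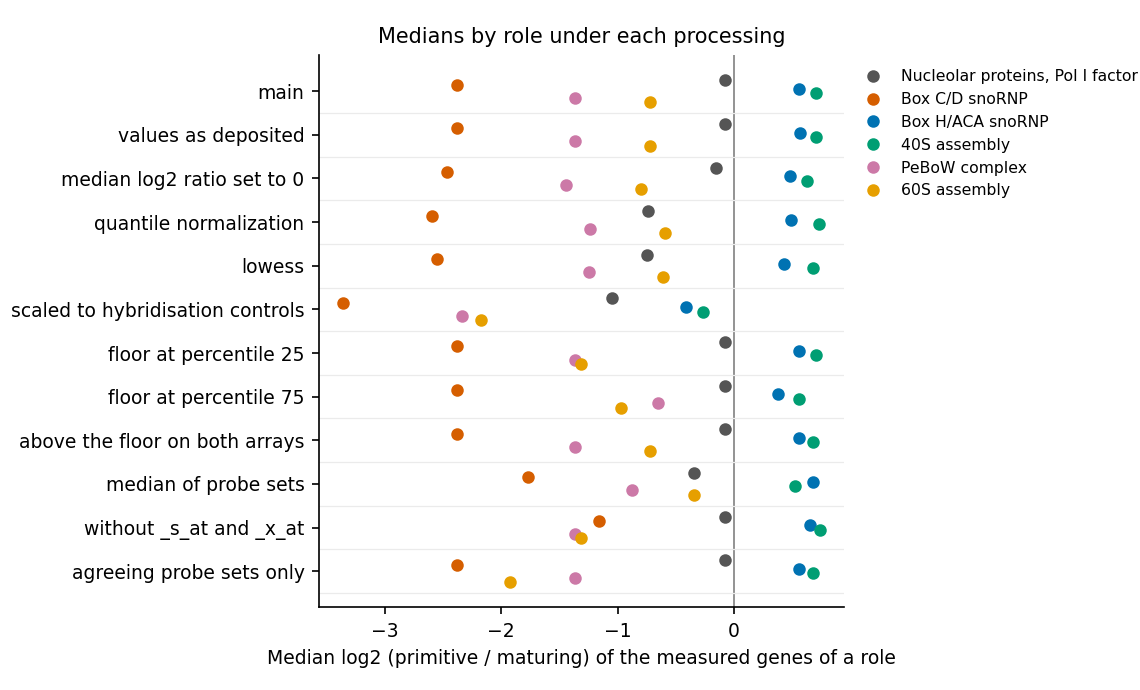
Median log2 ratio (x axis) of the measured genes of each role under the main processing and 11 alternatives (y axis). The H/ACA and small subunit medians are the highest of the 6 roles in each setting, though both fall below 0 when the arrays are scaled to the hybridisation controls. The box C/D median is the lowest except when cross-binding probe sets are left out, where it is -1.16, the PeBoW median -1.36 and the large subunit median -1.32.

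Differences from the median of all measured genes take out a shift common to the whole array, but not a shift that depends on intensity. The median of the brightest 886 of all measured genes was 0.44, beside 0.45 for Nop10 and 0.33 for Nhp2, both bright. After lowess, Nop10 (-0.32) and Nhp2 (0.08) lay under the median of all measured genes (0.11), and Gar1 (0.78) and Nolc1 (0.80) above it. The H/ACA median minus that of all measured genes was 0.50 in the main setting, 0.36 after quantile normalization, 0.32 after lowess and 0.33 when scaled to the hybridisation controls. For small subunit genes that difference was 0.64, 0.60, 0.56 and 0.47, and for box C/D genes -2.45, -2.73, -2.66 and -2.62. Scaling to the hybridisation controls shifts the ratio of every probe set alike. Apart from the floor and changes of the brightest probe set, it leaves these differences as they were by construction and lends them no support. The roles hold 3 to 8 measured genes each, from 1 array per group.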

How the data were processed

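Gene expression was measured on 1 Affymetrix array per group. The authors deposited linear intensity values, 1 per probe set, and the submitters' processing notes name MAS5 without a version. MAS5 summarises perfect-match and mismatch probes into a signal and scales each array to a target. The 2% trimmed means of the deposited arrays were 1000.6 (primitive) and 1000.4 (maturing), so a difference in total RNA cannot be seen. Detection calls were not used.

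Of 22690 probe sets, 64 were controls and 20380 had 1 symbol in the platform annotation, where 0 symbols changed through Entrez identifiers. The 691 with several symbols named no gene. A common trimmed mean was set for the pair of arrays. A floor of 441, the pooled median over probe sets other than controls, replaced lower intensities. Each gene was read from its probe set with the highest mean. Intensities are printed as deposited and ratios after rescaling. Genes were called at 4-fold, with 2-fold beside it. All measured members were named, and of the other lists up to 4 genes per direction with agreeing probe sets. A gene with 1 measured probe set counted as agreeing. The number of arrays limits the precision.

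The members and lists were chosen with earlier results of these data known. Promoters were RefSeq entries of GRCm38.p6, with 28 of 32 members matched. Protein lengths were not used here. Simulated data with known ratios were used to test the computation. Alternatives were other scalings, floors, thresholds and choices of probe set. The computation used matplotlib 3.10.9, statsmodels 0.14.6 (lowess), pandas 2.3.3, numpy 2.4.6, scipy 1.17.1 and Python 3.11.15.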

Additional observations from a re-analysis of the deposited data

How the results depend on the processing

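No paired analysis was possible because each group has 1 array, so no replicate could be left out either, and the comparison with protein length was not run. Of the 27 ratios, 12 kept their sign under all 11 alternatives that gave a value (3 higher in primitive HSC, 9 in maturing HSC). For genes with 1 probe set, alternatives that change the floor or the choice of probe set could not turn the sign. Sign changes came from scaling to the hybridisation controls (12 genes), quantile normalization (4), lowess (4), the median of probe sets (4) and the exclusion of cross-binding probe sets (1). Of the 12, Rrp1b changed sign through a switch of its brightest probe set. With the hybridisation controls, the median of cytosolic ribosomal proteins was 0.089, that of members -0.75 and that of other assembly genes -1.21. Apart from the floor, the ratio of every probe set shifts down there by construction, and the brightest probe set of a gene can change. Members at least 4-fold higher in maturing HSC were then 8 of 28, beside 1231 of all 9101 genes measured with that scaling. At 2-fold, 12 of the 28 were higher in maturing HSC, beside 3604 of the 9101, and 1 in primitive HSC, beside 384. The ribosomal protein median was 0.15 after both quantile normalization and lowess. At 8-fold, 1 member was higher in maturing HSC, and the share of all measured genes is not given at that fold. The member at least 4-fold higher in primitive HSC, Imp3, is a bound. The count was 0 with the floor at percentile 75, beside 165 of 4988 measured genes, and when bounds were left out, beside 199 of 5525. With the median of probe sets, 2 of 27 members were at least 2-fold higher in primitive HSC, beside 1146 of 8873 measured genes. Keeping only genes with agreeing probe sets was an alternative chosen after seeing the data, and genes with 1 measured probe set counted as agreeing. It left 20 members with a median of 0.23, and only 7 of them had more than 1 measured probe set. Of the 20, 2 were at least 2-fold higher in primitive HSC, beside 1197 of 7626 measured genes. Both, Imp3 and Utp20, rest on 1 probe set.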
